A study of Mus musculus with 9 samples.

Results

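Hsp90 and 8 of its co-chaperones were followed as 10 genes, Hsp90aa1, Hsp90ab1, Ahsa1, Ahsa2, Stip1, Ptges3, Cdc37, Fkbp4, Fkbp5 and Chordc1, out of 55573 gene identifiers counted. The genes were taken by name as the cytosolic Hsp90 pair and a set of proteins that bind it, and all 10 were found in the count tables. They were chosen with earlier results of these data known. Shares of all genes set beside them below are therefore a description and no test of the set. The material was RNA from splenic CD4+ T cells of B6 mice, sequenced as 9 libraries. Cells of 3 libraries had been activated for 3 h at 39 °C on plate-bound anti-CD3 and anti-CD28, antibodies that stand in for antigen and costimulation. Another 3 libraries came from cells activated for 3 h at 37 °C on the same kind of plate, and 3 were from naive cells that had not been activated. The comparison of 39 °C with 37 °C sets a febrile temperature against the normal one in activated cells, and the comparisons with naive cells give the response to activation together with culture. No temperature or time of culture is given for the naive cells, and no group is labelled as cultured without the antibodies. Culture and activation therefore cannot be told apart. Age, sex and the way the CD4+ cells were isolated are not given in the sources used here, nor is it stated whether libraries stem from separate animals or cultures. All p-values therefore refer to the spread among these libraries alone, which may be technical.

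Hsp90 is an ATP-driven chaperone dimer that holds kinases, steroid receptors and other client proteins in a state in which they can be activated. Clients reach it from Hsp70 through the adaptor Hop, are locked in by the co-chaperone p23, and are released as Aha1 speeds ATP hydrolysis, while Cdc37 brings in protein kinases and the FKBP immunophilins serve steroid receptors. Under heat, heat shock factor 1 is freed from chaperones, forms trimers and binds inverted repeats of the sequence nGAAn, the heat shock element, in the promoters of many of these genes. In T cells, Hsp90 clients include kinases of antigen receptor signalling such as Lck.

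The promoters were searched for the heat shock element, the site through which heat is known to act on such genes. RefSeq windows of the build GRCm38.p6, from 250 bases before to 50 bases after the annotated start, were at hand for 8 of the 10 genes, with no entry for Hsp90aa1 and Hsp90ab1. A pair of inverted units was taken as GAANNTTC or TTCNNGAA, each of which reads the same on both strands, and 3 units as GAANNTTCNNGAA or TTCNNGAANNTTC. Overlapping matches were allowed. A pair was found in 3 of the 8 windows, those of Chordc1, Fkbp4 and Cdc37, against 15.1% of 32851 windows of all genes. A run of 3 units was found in 1 window, that of Chordc1, against 0.603% of all windows. In Chordc1, 3 overlapping matches of 3 units form 1 run of 23 bases that begins 4 bases before the RefSeq start and lies inside the gene as GENCODE bounds it, shown at chr9:18292260-18292289 on the plus strand. Windows before the start are shown for Fkbp4 at chr6:128438678-128438906 and for Cdc37 at chr9:21149983-21150184, both on the minus strand, since they hold 1 pair each, while Fkbp4 was called lower at 39 °C and Cdc37 was not. For Ahsa2, which had the largest fitted fall of the 10 at 39 °C, the window at chr11:23498040-23498289 on the minus strand is shown and holds no match. Sequences run 5′ to 3′, and capitals mark the matched bases.
Chordc1: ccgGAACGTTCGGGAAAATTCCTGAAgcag
Fkbp4: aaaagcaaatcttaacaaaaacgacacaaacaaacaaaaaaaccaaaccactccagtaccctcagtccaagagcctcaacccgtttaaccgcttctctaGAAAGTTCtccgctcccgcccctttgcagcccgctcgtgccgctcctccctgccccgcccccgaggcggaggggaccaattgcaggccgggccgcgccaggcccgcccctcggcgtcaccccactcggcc
Cdc37: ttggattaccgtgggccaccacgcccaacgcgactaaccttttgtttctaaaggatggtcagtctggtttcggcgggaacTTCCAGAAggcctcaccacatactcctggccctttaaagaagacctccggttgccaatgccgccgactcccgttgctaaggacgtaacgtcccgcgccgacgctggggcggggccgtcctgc
Ahsa2: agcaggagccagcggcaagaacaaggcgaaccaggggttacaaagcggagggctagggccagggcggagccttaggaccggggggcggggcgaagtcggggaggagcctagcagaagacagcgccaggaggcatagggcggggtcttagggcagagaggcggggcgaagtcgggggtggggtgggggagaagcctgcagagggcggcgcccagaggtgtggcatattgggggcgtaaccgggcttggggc
The match in Fkbp4 begins 151 bases and that in Cdc37 170 bases before the RefSeq start. Both stretches shown end where the gene as GENCODE bounds it begins, which is short of the RefSeq start. Chordc1 also holds the pair TTCCGGAA 33 bases after its RefSeq start. No match was found for Ahsa1, Stip1, Ptges3 or Fkbp5, which says only that these letters are not in these windows. A match describes the sequence and is no evidence of binding.

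Each library held 12647692 to 17605549 counts, and values below are counts per 1000000 (CPM) scaled by the trimmed mean of M values. All 10 genes passed the filter on low counts, with 200 counts or more in every library. CD4 T cell markers summed to 5823 CPM at 39 °C, 5574 CPM at 37 °C and 5302 CPM in naive libraries, and activated T cell markers to 8509, 8623 and 803 CPM in the same order of groups. Markers of other cells stood apart mostly in the naive libraries: the 12 B cell markers summed to 303 CPM in 39 °C libraries, 279 CPM in 37 °C libraries and 855 CPM in naive ones, and the erythroid and platelet markers to 9.67, 9.35 and 182 CPM in the same groups. Of the 12 B cell markers 10 were lower at 37 °C than in naive cells, and between the temperatures none was called by edgeR or DESeq2, with 2 higher and 1 lower at an unadjusted p under 0.05 in edgeR. Of the 6 erythroid and platelet markers tested 5 were lower at 37 °C than in naive cells, and Pf4 and Ppbp were at 0 in both activated groups. The 6 stromal and endothelial markers summed to 159, 134 and 302 CPM in these groups. Only 1 of the 6 passed the filter, and Cdh5, Pdgfrb and Vwf were at 0 at 37 °C, so the sum rested mainly on 1 gene. Between the temperatures edgeR did not call the tested marker, which was higher at 39 °C at an unadjusted p under 0.05. DESeq2 called 1 of the 6 higher, beside 38 of 14080 genes over all. Myeloid, neutrophil, dendritic, NK and CD8 T cell markers summed to no more than 30.8 CPM in the mean of any group. Ribosomal protein genes took 9.30% of counts at 39 °C, 8.52% at 37 °C and 12.5% in naive libraries. The part of these differences in the changes against naive cells was not tested. In bulk RNA, fewer cells of a kind and less RNA per cell cannot be told apart.

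**Figure D1:**
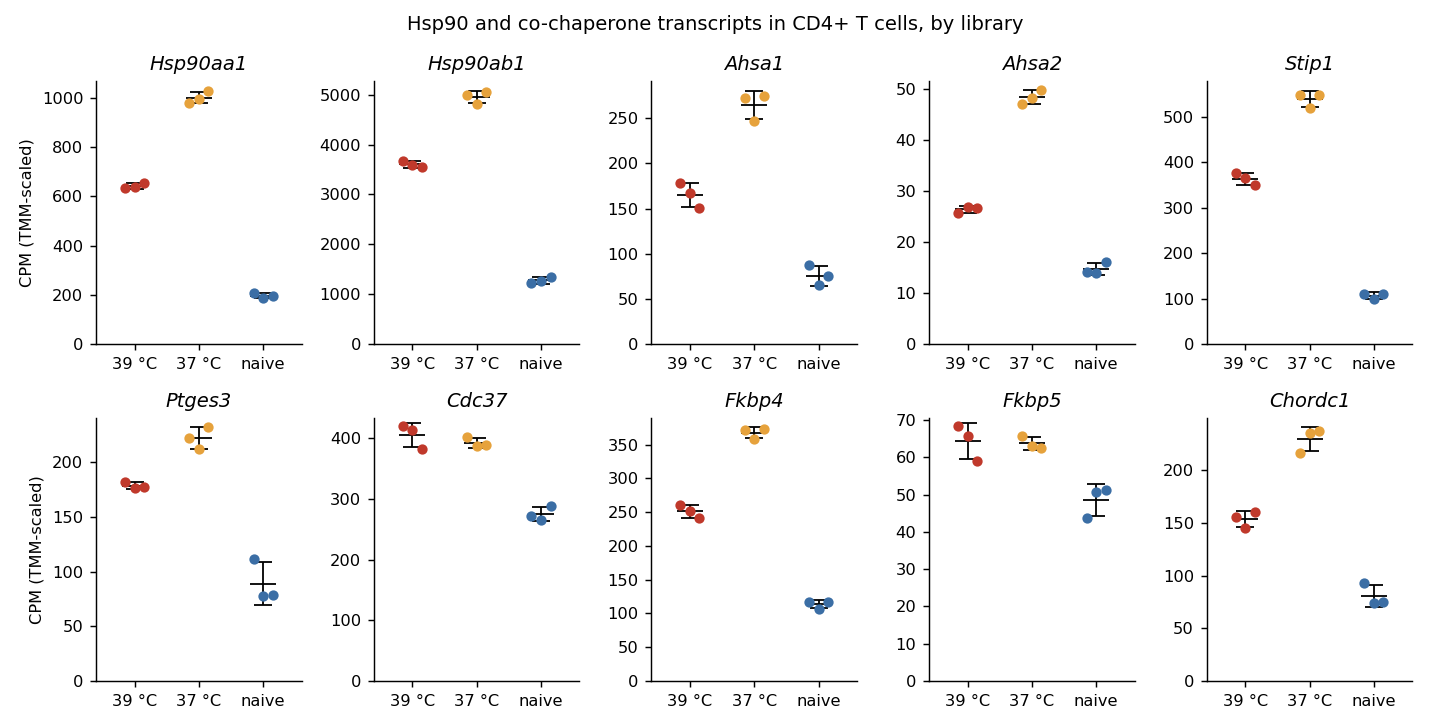
Level of each gene in each library, in CPM on linear axes that start at 0, with points for libraries and bars for the mean ± SD of the 3 libraries at 39 °C (red), 37 °C (orange) and naive (blue). Hsp90ab1 lies between 3541 and 3671 CPM at 39 °C, below all 37 °C libraries and above all naive ones, whereas Cdc37 and Fkbp5 overlap between the temperatures.

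At 39 °C, 7 of the 10 genes were lower than at 37 °C (edgeR's quasi-likelihood test, Benjamini-Hochberg adjusted p under 0.05 over 13328 genes), where 0.623% of all genes tested were lower. These were both Hsp90 genes and Ahsa1, Ahsa2, Stip1, Fkbp4 and Chordc1. None of the 10 was called higher by edgeR or by DESeq2, and none at an unadjusted p under 0.05, while 0.135% of all genes were called higher by edgeR. At that unadjusted p, 8 of the 10 and 4.25% of all genes were lower. The median log2 fold change of the 10 was -0.56, against 0.0041 over all genes tested. In 8 of the 10, no 39 °C library reached a 37 °C library, where 10.3% of all genes were lower without overlap. DESeq2 also called 7 of the 10 lower, and 113 of 14080 genes over all. The count of lower genes was 4 to 8 when 1 library was left out, namely 4 without 37 °C library 3 or without 39 °C library 2, and 8 without naive library 1.

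The whole set stood higher in activated than in naive cells. All 10 genes were higher at 37 °C than in naive cells, where 30.9% of all genes were higher, and all 10 were higher at 39 °C than in naive cells, where 29.2% were (edgeR, adjusted p under 0.05). In all 10, every activated library lay above every naive library, as for 32.7% of all genes at 37 °C and 30.8% at 39 °C. The median log2 fold changes were 1.70 at 37 °C and 1.06 at 39 °C against the same naive libraries, and -0.0025 and -0.0027 over all genes tested. These comparisons share their naive libraries, and the comparison of temperatures shares the 37 °C libraries. Together the 10 genes took 5851 ± 115 CPM at 39 °C, 8082 ± 188 CPM at 37 °C and 2279 ± 72.5 CPM in naive libraries (SD, n = 3 each). That was 0.581% of all counts at 39 °C, 0.802% at 37 °C and 0.230% in naive cells.

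The chaperone pair itself comes first. Hsp90aa1 (ENSMUSG00000021270, chr12:110690605-110702728, minus strand, GRCm38) encodes the stress-inducible form Hsp90 alpha. Its level was 633, 638 and 654 CPM in the 39 °C libraries, 980.0, 997 and 1026 CPM in the 37 °C libraries, and 207, 188 and 197 CPM in the naive libraries. The groups did not overlap, and the naive libraries were lowest. At 39 °C it fell to 64.1% of its 37 °C level, a log2 fold change of -0.64 ± 0.067 (SE; adjusted p = 0.000567, edgeR). Against naive cells it was 2.34 ± 0.071 higher on the log2 scale at 37 °C (adjusted p = 1.17e-10, edgeR). At 39 °C it was 1.70 ± 0.069 higher than in naive cells (adjusted p = 1.56e-09, edgeR). The gain at 37 °C was the largest fitted one of the 10, next to 2.33 for Stip1. Of the exonic 50-base stretches of Hsp90aa1 47.5% recur in 4 pseudogenes. Among these Gm12346, Gm5844 and Gm5511 had counts, with none of the 3 above 9.65 CPM in any library. Adding those counts changed none of the calls of Hsp90aa1, but they are small beside its own. Shared reads that the counter dropped would be in neither gene, so this check says nothing of them.

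Hsp90ab1 (ENSMUSG00000023944, chr17:45567775-45573271, minus strand), the constitutive form Hsp90 beta, was the most abundant of the 10, also per kilobase. It stood at 3671, 3589.6 and 3541 CPM at 39 °C, at 4983, 4814 and 5060.5 CPM at 37 °C, and at 1221, 1268 and 1343 CPM in naive libraries. Again the 3 groups did not overlap. The gene fell to 72.7% of the 37 °C level at 39 °C (log2 fold change -0.46 ± 0.076, adjusted p = 0.0145, edgeR). Leaving out any single activated library ended that call, with log2 fold changes of -0.48 to -0.44 over the alternatives tried and adjusted p up to 0.146. Its gains over naive cells were 1.96 ± 0.079 at 37 °C and 1.5 ± 0.078 at 39 °C on the log2 scale (adjusted p = 1.33e-09 and 1.29e-08, edgeR).

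Within the Hsp90 pair, the share of Hsp90aa1 in counts per kilobase of exon was 12.0 ± 0.359% at 39 °C, 13.4 ± 0.298% at 37 °C and 10.6 ± 0.782% in naive cells (SD, n = 3 each). The log2 ratio of Hsp90aa1 to Hsp90ab1 differed by -0.18 at 39 °C against 37 °C, by 0.39 at 37 °C against naive cells and by 0.21 at 39 °C against naive cells. In each of these comparisons the libraries did not overlap, and each had p = 0.1 in a 2-sided exact permutation test, the smallest that 3 against 3 libraries can give (adjusted p = 0.15 over 9 such tests). The alpha share was therefore highest at 37 °C in these libraries, without passing a threshold of 0.05.

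**Figure D2:**
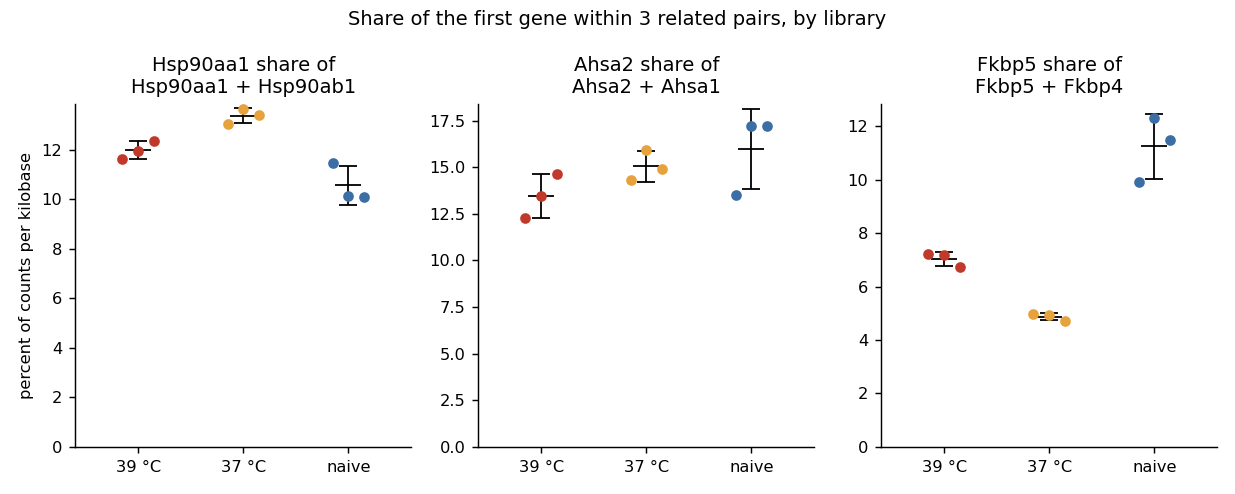
Share of the first gene of 3 related pairs, in percent of the pair's counts per kilobase of exon, by library at 39 °C, 37 °C and naive, with bars for the mean ± SD of 3 libraries. The Hsp90aa1 share is highest at 37 °C (13.4%), the Fkbp5 share is lowest there (4.87%), and the Ahsa2 shares overlap.

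Among the co-chaperones that act on the ATP cycle, Ahsa1 (ENSMUSG00000021037, chr12:87266479-87273998, plus strand) encodes Aha1, the activator of Hsp90's ATPase. Ahsa1 measured 178, 167 and 151 CPM at 39 °C, 272, 246 and 275 CPM at 37 °C, and 87.4, 65.1 and 75.2 CPM in naive libraries. No library of one group reached another group. Its log2 fold change between the temperatures was -0.68 ± 0.10 (adjusted p = 0.00807, edgeR), which left 62.5% of the 37 °C level. The call was lost without 37 °C library 1 or 3 or without 39 °C library 2 or 3, at adjusted p up to 0.0670. Over naive cells Ahsa1 rose by 1.80 ± 0.11 at 37 °C and by 1.12 ± 0.10 at 39 °C on the log2 scale (adjusted p = 3.16e-08 and 2.01e-06, edgeR).

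Ahsa2 (ENSMUSG00000020288, chr11:23487882-23498030, minus strand), a relative of Ahsa1 in sequence, had the largest fitted fall of the 10. Its libraries read 25.7, 26.9 and 26.8 CPM at 39 °C, 47.1, 48.4 and 49.8 CPM at 37 °C, and 14.2, 14 and 16.2 CPM for naive cells. The 39 °C libraries lay closely together, well below those at 37 °C and above the naive ones. The log2 fold change at 39 °C was -0.87 ± 0.077 (adjusted p = 0.000153, edgeR), 54.7% of the 37 °C level, and it was 1.71 ± 0.080 at 37 °C and 0.84 ± 0.082 at 39 °C against naive cells (adjusted p = 4.73e-09 and 3.19e-06, edgeR). Of its 4532 exon bases 2137 overlap exons of Usp34 on the opposite strand, and since the counting is not stated to use strand, reads of the 2 genes there cannot be told apart. Usp34, a ubiquitin protease gene, ranged from 167 to 258 CPM at 39 °C, from 219.8 to 281 CPM at 37 °C and from 92.7 to 207 CPM in naive libraries. It did not pass the test between temperatures (log2 fold change -0.20 ± 0.23, adjusted p = 0.890, edgeR). The ratio of Ahsa2 to Ahsa1 overlapped between groups in all 3 comparisons, with log2 differences of -0.19 between the temperatures, -0.096 for 37 °C and -0.29 for 39 °C against naive cells (exact permutation p = 0.2, 0.6 and 0.2, and 0.225, 0.6 and 0.225 adjusted).

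Stip1 (ENSMUSG00000024966, chr19:7020702-7039967, minus strand) encodes Hop, the adaptor that bridges Hsp70 and Hsp90. It was counted at 376, 365 and 349.5 CPM at 39 °C, 548, 519 and 548 CPM at 37 °C, and 111, 98.2 and 111 CPM in naive libraries. The groups did not overlap, with 67.6% of the 37 °C level left at 39 °C. The log2 fold change was -0.57 ± 0.071 between temperatures (adjusted p = 0.00202, edgeR), 2.33 ± 0.075 at 37 °C against naive cells and 1.77 ± 0.074 at 39 °C against naive cells (adjusted p = 2.08e-10 and 1.85e-09, edgeR). The gain at 39 °C was the largest fitted one of the 10, next to 1.70 for Hsp90aa1.

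Ptges3 (ENSMUSG00000071072, chr10:128058954-128077272, plus strand) encodes p23, which stabilises the closed, client-bound dimer. Its values were 182, 176 and 178 CPM at 39 °C, 222, 212 and 233 CPM at 37 °C, and 112, 77.5 and 78.4 CPM in naive libraries. The 39 °C libraries all lay below the 37 °C libraries, and naive library 1 stood above the other 2 naive libraries. The difference between temperatures did not pass the test (log2 fold change -0.32 ± 0.12, adjusted p = 0.460, edgeR), although it did when the 6 activated libraries were fitted alone (adjusted p = 0.00263) and when naive library 1 was left out. Against naive cells the log2 fold change was 1.32 ± 0.12 at 37 °C and 1.0 ± 0.12 at 39 °C (adjusted p = 1.49e-06 and 1.65e-05, edgeR). Its processed pseudogene Ptges3-ps, which shares 19.5% of its 50-base stretches, had 10.03 to 10.7 CPM at 39 °C, 11.4 to 15 CPM at 37 °C and 4.47 to 5.07 CPM in naive libraries.

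Cdc37 (ENSMUSG00000019471, chr9:21133222-21149982, minus strand), the co-chaperone that recruits protein kinases, showed no difference that passed the test between the temperatures. It was at 420.4, 414 and 383 CPM at 39 °C, 402, 388 and 388 CPM at 37 °C, and 272, 266 and 288 CPM in naive libraries. The activated libraries overlapped between temperatures and lay above every naive library. Its log2 fold change was 0.046 ± 0.067 at 39 °C against 37 °C (adjusted p = 0.911, edgeR), and 0.51 ± 0.067 at 37 °C and 0.56 ± 0.067 at 39 °C against naive cells (adjusted p = 3.51e-05 and 1.87e-05, edgeR).

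The FKBP immunophilins are peptidyl-prolyl isomerases that dock on the same end of Hsp90. Fkbp4 (ENSMUSG00000030357, chr6:128429735-128438677, minus strand), whose product promotes steroid receptor activity, was at 260.4, 251 and 241 CPM at 39 °C, 372, 358 and 373 CPM at 37 °C, and 117, 106 and 117 CPM in naive libraries. The groups were apart. Fkbp4 fell by 0.55 ± 0.066 on the log2 scale at 39 °C (adjusted p = 0.00134, edgeR), and its gains over naive cells were 1.70 ± 0.068 at 37 °C and 1.15 ± 0.067 at 39 °C (adjusted p = 1.19e-09 and 3.37e-08, edgeR).

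Fkbp5 (ENSMUSG00000024222, chr17:28399094-28517527, minus strand), whose product restrains the glucocorticoid receptor and whose gene that receptor induces, had 68.5, 65.8 and 59.1 CPM at 39 °C, 65.7, 63.0 and 62.6 CPM at 37 °C, and 43.7, 50.6 and 51.3 CPM in naive libraries. The libraries of the 2 temperatures overlapped, and all lay above the naive ones. The log2 fold change was 0.016 ± 0.081 between temperatures (adjusted p = 0.977, edgeR), and 0.39 ± 0.082 at 37 °C and 0.41 ± 0.082 at 39 °C against naive cells (adjusted p = 0.00125 and 0.00101, edgeR), the smallest gains of the 10. The share of Fkbp5 in the pair was 7.04 ± 0.263% at 39 °C, 4.87 ± 0.134% at 37 °C and 11.2 ± 1.21% in naive cells (counts per kilobase of exon, SD, n = 3 each). With the longest coding transcript as length these shares were 12.8%, 9.06% and 19.8% in the same groups, so the level of the share depends on the length used, while the differences between groups in log2 ratio do not. In log2 ratio, Fkbp5 to Fkbp4 was 0.57 higher at 39 °C than at 37 °C, and differed from naive cells by -1.30 at 37 °C and -0.74 at 39 °C. None of these libraries overlapped, and each comparison had exact permutation p = 0.1, the smallest possible here (0.15 adjusted).

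Chordc1 (ENSMUSG00000001774, chr9:18292125-18317442, plus strand) encodes a CHORD-domain protein that binds Hsp90, and it carries the run of inverted units shown above. It was counted at 156, 145 and 160.3 CPM at 39 °C, 217, 235 and 237 CPM at 37 °C, and 92.6, 74.3 and 74.8 CPM in naive libraries. The groups did not overlap. Chordc1 fell to 66.9% of the 37 °C level (log2 fold change -0.58 ± 0.089, adjusted p = 0.00934, edgeR). The call was lost without 37 °C library 2 or 3 or 39 °C library 2, at adjusted p up to 0.0950. Its gains over naive cells were 1.51 ± 0.091 at 37 °C and 0.93 ± 0.090 at 39 °C (adjusted p = 3.95e-08 and 2.92e-06, edgeR).

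**Figure D3:**
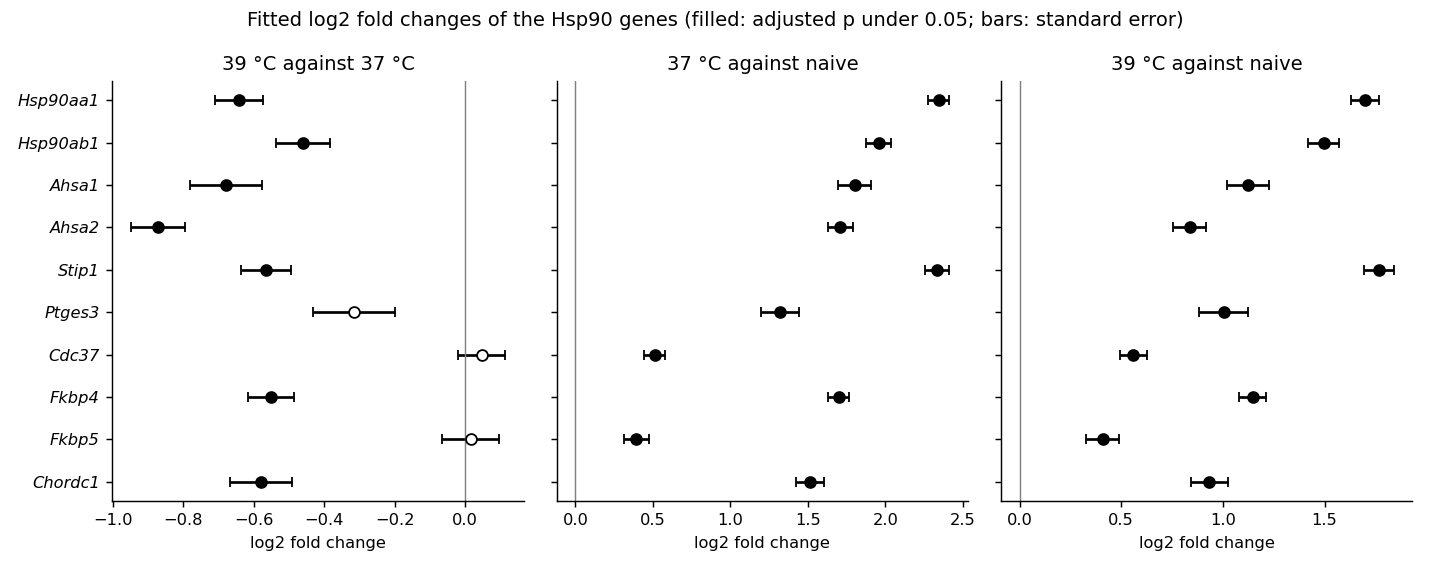
Log2 fold change of each gene in 3 comparisons, with bars for the standard error and filled points where the adjusted p of edgeR is under 0.05. In the left panel 7 genes lie below 0 with filled points, Ptges3 lies below 0 with an open point, and Cdc37 and Fkbp5 lie near 0, while every point of the other panels is above 0.

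Hsp90aa1, Ahsa2, Stip1 and Fkbp4 were called lower at 39 °C in all 19 alternative settings tried, single libraries left out included. Hsp90ab1 was so in 12, Ahsa1 in 15, Chordc1 in 16 and Ptges3 in 2 of the 19, and Cdc37 and Fkbp5 in none. Each of the 10 gains over naive cells was called in all 19, at both temperatures.

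Per kilobase of exon, the order of levels at 37 °C was led by Hsp90ab1 at 1651 ± 42.0 CPM per kilobase (SD, n = 3). Stip1 and Hsp90aa1 followed at 255 ± 8.05 and 255 ± 5.92 CPM per kilobase, and their libraries overlapped. Of their 50-base stretches 5.59% and 47.5% recur in other genes, so Hsp90aa1 may read too low beside Stip1 if shared reads were dropped. Next came Fkbp4 at 132, Ptges3 at 100.3, Ahsa1 at 60.5, Cdc37 at 47.9, Chordc1 at 30.6, Ahsa2 at 10.7 and Fkbp5 at 6.73 CPM per kilobase, with no overlap between neighbours in that order. At 39 °C, Cdc37 at 49.5 stood above Ahsa1 at 37.8 CPM per kilobase, and Fkbp5 at 6.81 above Ahsa2 at 5.85 CPM per kilobase, each without overlap. Of the 4532 exon bases of Ahsa2, 2137 overlap exons of Usp34, so Ahsa2 may read too low if reads there were dropped. In naive cells Fkbp4, Ptges3 and Cdc37 at 40.6, 40.2 and 33.6 CPM per kilobase could not be ranked, since neighbours among them overlapped. These lengths count every annotated exon, and both of these changes in order at 39 °C depend on them. With the longest coding transcript as length, Ahsa1 stood above Cdc37 at both temperatures (120.1 against 51.7 CPM per kilobase at 39 °C, and 192 against 50.04 at 37 °C), and Fkbp5 above Ahsa2 at both (16.7 against 7.40 at 39 °C, and 16.5 against 13.5 at 37 °C).

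The genes nearest in pattern were ranked by the distance of log2(CPM + 1) values, centred per gene over the 9 libraries, among the 7031 genes whose mean reached 20 CPM. Predicted gene models, named Gm with a number or ending in Rik, count among the 7031 but were passed over in the ranking. For Hsp90aa1 the nearest was Stip1 (distance 0.181), then Hspd1 (0.320), Umps (0.444), Hsp90ab1 (0.504) and Gadd45b (0.522). Hsp90ab1 had Hspa8 nearest (distance 0.183), then Ecm1, Homer1, Ccnd2 and Tnfrsf1b at 0.358 to 0.409. Hspa8, the constitutive Hsp70 gene, stood at 3025 ± 108 CPM at 39 °C, 4184 ± 149 CPM at 37 °C and 1105 ± 93.8 CPM in naive cells. For Fkbp5 the nearest were Akt2 (distance 0.102), Zfp219, Fxr2, Pip4k2c and Mafk, all within 0.151.

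The remaining Hsp90 machinery was read against the 10 genes from lists of the pathway. The Hsp90 paralogs of other compartments, Hsp90b1 of the endoplasmic reticulum and Trap1 of mitochondria, were not called between the temperatures, at -0.22 ± 0.063 and -0.081 ± 0.067 on the log2 scale (adjusted p = 0.240 and 0.855, edgeR). Hsp90b1 averaged 207 ± 4.93 CPM in 39 °C libraries and 241 ± 8.04 CPM in 37 °C libraries without overlap, and it was called with the 6 activated libraries alone. Both were higher at 37 °C than in naive cells, by 0.86 ± 0.063 and 0.55 ± 0.067.

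Of 31 other Hsp90 co-chaperones, none was called between the temperatures by edgeR. At an unadjusted p under 0.05, 4 were lower and 1 higher, where 4.25% of all genes were lower. DESeq2 called 3 of them lower, Cacybp, Nudc and St13, beside 113 of 14080 genes over all. Their median log2 fold change was 0.0080, against -0.56 for the 10 genes, and both lists were chosen with earlier results known. St13, the Hsp70-interacting protein Hip, averaged 262 ± 7.21 CPM in 39 °C libraries and 314 ± 4.08 CPM in 37 °C libraries (log2 fold change -0.26 ± 0.067, adjusted p = 0.152, edgeR). Nudc, a p23-like protein of the nuclear movement family, had a log2 fold change of -0.38 ± 0.084 (adjusted p = 0.0849, edgeR). Against naive cells 17 of the 31 were higher and 5 lower at 37 °C, where 30.9% of all genes were higher and 31.8% lower. St13 was at 1.67 ± 0.069, the AAA ATPase Ruvbl1 at 1.45 ± 0.076 and the cyclophilin Ppid at 1.26 ± 0.080 on the log2 scale. At 39 °C 15 of the 31 were higher and 4 lower, where 29.2% of all genes were higher and 29.8% lower. The mitochondrial import receptor gene Tomm70a was higher by 0.94 ± 0.068.

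Of 25 listed Hsp90 clients, none was called between the temperatures by edgeR over the 9 libraries or by DESeq2. At an unadjusted p under 0.05 in edgeR 4 were lower and 0 higher, where 4.25% of all genes were lower. The median of the clients was -0.052. With the 6 activated libraries alone edgeR called 1 lower, the glucocorticoid receptor gene Nr3c1, where 265 of 12751 genes were lower. Without naive library 1 it also called 1 lower, where 202 of 13593 genes were. Against naive cells 10 clients rose and 3 fell at 37 °C, beside 30.9% and 31.8% of all genes. At 39 °C 8 rose and 3 fell, beside 29.2% and 29.8% of all genes, so the share of clients that rose was near that of all genes. Bcl6, a transcriptional repressor, was at 141 ± 4.03 CPM at 39 °C, 138 ± 4.57 CPM at 37 °C and 26.1 to 32.1 CPM in naive libraries. Hif1a, the oxygen-regulated factor, gained 1.15 ± 0.067 at 37 °C and 0.99 ± 0.067 at 39 °C over naive cells on the log2 scale. Hsf1, the heat shock factor that is itself held by Hsp90, was at 156 ± 6.42 CPM at 39 °C, 177 ± 4.49 CPM at 37 °C and 109 ± 3.94 CPM in naive cells, a log2 fold change of -0.18 ± 0.062 between temperatures (adjusted p = 0.396, edgeR) and of 0.70 ± 0.063 at 37 °C against naive cells (adjusted p = 1.39e-06, edgeR). Hsf2 and Hsf4, the other factors listed, were not called between the temperatures.

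Since Fkbp5 is induced by the glucocorticoid receptor, 14 targets of that receptor were listed, of which 11 could be tested. None of the 11 was called between the temperatures by edgeR or by DESeq2. At an unadjusted p under 0.05 in edgeR 3 were lower and 1 higher, where 4.25% of all genes were lower. At 37 °C against naive cells 4 rose and 7 fell, beside 30.9% and 31.8% of all genes. Tsc22d3, the glucocorticoid-induced leucine zipper, had a log2 fold change of -1.68 ± 0.096 and the kinase gene Sgk1 one of -1.67 ± 0.084 (adjusted p = 2.49e-08 and 9.11e-09, edgeR). Txnip, which encodes a thioredoxin-binding protein, fell by 1.48 ± 0.086 on the log2 scale (adjusted p = 2.99e-08, edgeR). Errfi1, which encodes an inhibitor of EGF receptor signalling, gained 1.45 ± 0.083 (adjusted p = 2.68e-08, edgeR), and Fkbp5 0.39. The receptor gene Nr3c1 was at 115 ± 5.92 CPM at 39 °C, 139 ± 5.68 CPM at 37 °C and 114 ± 12.4 CPM in naive cells, with no call between the temperatures over the 9 libraries (log2 fold change -0.26 ± 0.082, adjusted p = 0.304, edgeR) and a call of lower at 39 °C with the 6 activated libraries alone (-0.27, adjusted p = 0.0142, edgeR).

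Among neighbouring chaperone families, edgeR called 3 of 12 Hsp70 and Hsp110 genes lower at 39 °C than at 37 °C, Hsph1 (log2 fold change -1.03), Hspa8 (-0.47) and Hspa1b (-0.60), with a median of -0.21 over the list, where 0.623% of all genes were lower. Both DESeq2 and edgeR with the 6 activated libraries alone called 4, adding Hspa4l. Over all genes these called 113 of 14080 and 265 of 12751 lower, in that order. In the DnaJ family 2 of 22 were lower, Dnajb2 (-0.48) and Dnaja4 (-0.85), with a median of -0.031. With the 6 activated libraries alone 4 were called, adding Dnaja1 and Dnajb1, beside the same 265 of 12751 genes. The calls of Hspa8, Hspa1b and Dnaja4 ended when any single activated library was left out, and that of Dnajb2 without 37 °C library 1 or 3 or 39 °C library 2 or 3, while that of Hsph1 held in all 19 alternatives. That of Hspa1b also ended with upper-quartile scaling and without naive library 3, and it held in 9 of 19 alternatives, at adjusted p up to 0.291 (edgeR). Hspa1b is nearly identical to Hspa1a, so its value is uncertain. None of the 8 CCT chaperonin genes was called by edgeR or by DESeq2, and their median was -0.10. At an unadjusted p under 0.05 in edgeR 2 of the 8 were lower, where 4.25% of all genes were. No test was made between the lists, since their genes were chosen with earlier results known.

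**Figure D4:**
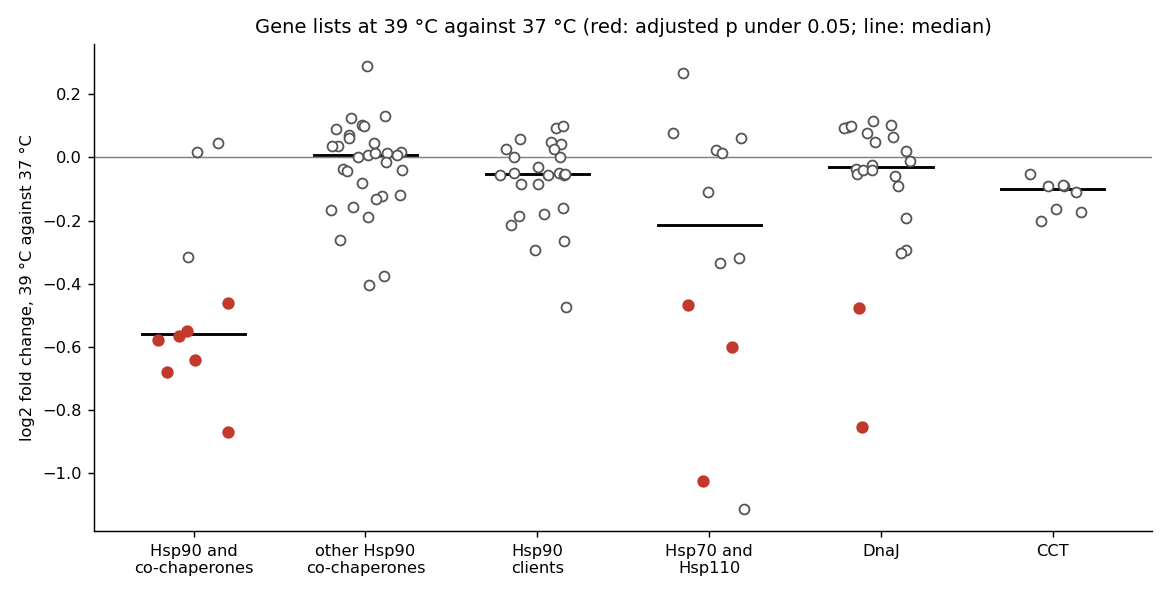
Log2 fold change at 39 °C against 37 °C of each tested gene in 6 lists, 1 point per gene, red where edgeR's adjusted p is under 0.05, with a line at the median of each list. The median is -0.56 for the 10 genes, 0.0080 for 31 other Hsp90 co-chaperones and -0.21 for the Hsp70 and Hsp110 genes.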

How the data were processed

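RNA of 9 libraries of mouse CD4+ T cells was analysed. The authors deposited raw read counts per gene, 1 table per library, not normalised. Per the submitters' processing notes the build was GRCm38 and the tools included HTSeq, HISAT2, DESeq2 and FastQC, with no versions or roles. The deposited tables look like gene counts from STAR, which the notes do not name, so the counter, and how it treated reads shared by overlapping genes or pseudogenes, is uncertain. The annotation release and strand setting are not given in the sources used here. Per the labels' protocols, total RNA was extracted with TRIzol and prepared with a TruSeq kit. Of 55573 identifiers 55394 matched GENCODE M21, which gave symbols and coordinates.

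Counts were fitted with edgeR 4.0.16 in R 4.3.3: TMM scaling, the filterByExpr filter (minimum count 10, minimum total 15), the quasi-likelihood F test in 1 fit of 3 groups and Benjamini-Hochberg adjustment over 13328 genes at 0.05. The standard error is the size of the log2 fold change divided by the square root of F. Pair ratios used 2-sided exact permutation tests over libraries. Alternatives were other scalings, filters, a threshold of 0.01, DESeq2 1.42.0, the replicate number as a block, 6 libraries alone and each library left out. Pseudogene counts added and the longest coding transcript as length were chosen after seeing the data. The fit was tested on simulated counts. No 2 libraries of a group agreed within sampling noise. The 10 members and all lists were chosen with earlier results of these data known. Of each list up to 4 called genes per comparison were named by adjusted p, and Cacybp, Nr3c1 and Usp34 after their values were seen. Promoters came from RefSeq.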

Additional observations from a re-analysis of the deposited data

How the results depend on the processing

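Each of the 10 gains over naive cells kept its call and direction in 19 alternatives at both temperatures. The count of 7 members lower at 39 °C was 7 with RLE, upper-quartile or library size scaling, any count, at least 1 CPM in 3 libraries and DESeq2, 6 at an adjusted p of 0.01, 8 with 6 libraries alone and 4 to 8 with 1 library left out. With the replicate block it was 7, and among the other chaperone genes named the block ended the call of Hspa1b. Correlations of deviations were -0.17 to 0.33 between libraries of the same replicate number and -0.34 to 0.36 between those of different number. The numbers thus gave no sign of pairing, but so few libraries cannot exclude it. With upper-quartile scaling the median of all genes against naive cells was -0.14 at 37 °C and -0.13 at 39 °C, beside -0.0025 and -0.0027 with TMM. It gave 3340 genes higher and 5139 lower at 37 °C, against 4114 and 4240 with TMM, and 3092 and 4914 at 39 °C, against 3887 and 3968. All genes lower at 39 °C than at 37 °C numbered 83, and 133 with any count, 113 with DESeq2, 37 at 0.01, 265 with 6 libraries alone and 30 to 202 with 1 library left out, and those higher 18, 43, 38, 8, 136 and 7 to 89. With 1 library left out, uncalled log2 values near 0 changed sign at 39 °C against 37 °C: Fkbp5 ranged from -0.033 (without 39 °C library 1) to 0.076, Cdk4 from -0.0036 to 0.068, Dnaja2 from -0.049 to 0.035, Hsf4 from -0.14 to 0.60, Ruvbl1 from -0.038 to 0.045 and Txnip from -0.020 to 0.033. The causes were not tested. With 3 libraries a group, exact tests cannot reach 0.05, and depth limits Ahsa2 most, at 200 to 702 counts a library.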
